A study of Mus musculus with 2 samples.

Results

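The interferon-inducible p200 genes described here are 9 neighbouring genes of mouse chromosome 1: Ifi203, Ifi204, Ifi206, Ifi208, Ifi209, Ifi213, Ifi214, Aim2 and Mndal. They were taken by name from the 32285 genes of the count tables and were chosen by their levels in gated T, B and NK cells of both genotypes, so every comparison of genotypes for them is a description and not a test. The cells came from mouse lymph nodes and were profiled in droplets by counting the 3′ ends of their transcripts with molecular barcodes (unique molecular identifiers, UMIs), with 1 library per genotype. The WT library was from wild-type mice and the CKO library from mice with a conditional knockout of Rpa1, both on the C57BL/6 background. Age, sex, the number of animals, the deleted exons and the driver of the deletion are not given in the sources used here. Intervals are exact, at 95%, and hold counting error alone, since nothing in 1 library per genotype measures the spread between animals. Those of levels and ratios also leave out the spread between cells.

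Most proteins of the p200 family, also called the PYHIN or HIN family, carry a HIN domain that binds double-stranded DNA. Most also carry a pyrin domain through which they meet partner proteins. Which of the members described here carry each domain was not examined. Type I interferon raises the transcription of most of the family through response elements in their promoters. Aim2 is the family's cytosolic DNA sensor that assembles an inflammasome with the adaptor Pycard and the protease caspase-1. Ifi204 is a nuclear and cytosolic DNA-binding protein that is abundant in myeloid cells and is often set beside human IFI16. Mndal is a nuclear member that restrains cell growth when it is overexpressed.

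The 9 genes lie within 592 kb of chromosome 1 (GRCm38, GENCODE M21, 173350879 to 173942672), 3 on the plus strand and 6 on the minus strand. From low to high coordinate they are Aim2 (plus strand), Ifi206, Ifi214 and Ifi213 (minus), Ifi209 and Ifi208 (plus), and Ifi204, Mndal and Ifi203 (minus). RefSeq promoters (GRCm38.p6, 250 bases before to 50 after the start) were found for 8 of them, with 10 promoters in all, and there was no entry for Ifi204. The interferon-stimulated response element was searched for on both strands as GAAA, any 2 bases and GAAA. It was present in promoters of 6 of the 8 members, against 3.99% of all 27025 genes in the table (1079 of them). Counted by promoter it was in 7 of the 10, against 3.44% of all 32851 promoters (1131 of them). A further promoter of Mndal held a match with other letters. In those 6 members 1 promoter each held a match of the same 10 letters, GAAATCGAAA. Of the 32851 promoters 16 (0.0487%) held this match, 6 of them promoters of these members and 1 that of the neighbouring p200 gene Ifi207. The 60 bases around that match are printed for the 6 members because they show how alike or unlike the promoters are of genes that differed in their levels between the libraries. They run 5′ to 3′ on the strand of the gene, with the match in capitals.
Ifi203, chr1:173942493-173942552, minus strand: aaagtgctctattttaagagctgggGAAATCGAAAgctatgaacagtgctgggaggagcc
Mndal, chr1:173880189-173880248, minus strand: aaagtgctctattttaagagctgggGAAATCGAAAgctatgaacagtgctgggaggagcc
Ifi206, chr1:173491324-173491383, minus strand: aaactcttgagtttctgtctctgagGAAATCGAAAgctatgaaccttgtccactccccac
Ifi208, chr1:173673582-173673641, plus strand: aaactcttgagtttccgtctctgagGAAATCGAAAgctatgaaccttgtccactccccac
Ifi213, chr1:173599311-173599370, minus strand: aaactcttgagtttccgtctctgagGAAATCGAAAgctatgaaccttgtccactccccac
Ifi214, chr1:173536002-173536061, minus strand: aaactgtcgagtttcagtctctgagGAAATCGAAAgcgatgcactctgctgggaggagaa

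The windows of Ifi208 and Ifi213 were identical over the 60 bases, and their whole promoters differed at 3 of 285 overlapping bases (98.9% identity). Those of Ifi203 and Mndal were also identical over the 60 bases, and that of Ifi206 differed from that of Ifi208 at 1 base. Over 299 overlapping bases, aligned without gaps, the promoters of Ifi203 and Mndal were 65.2% identical. The windows of Ifi203 and Mndal differed from those of Ifi206, Ifi208 and Ifi213 at 26 bases. That of Ifi214 differed from each of the others at 18 bases. The match began 35 bases before the start in Ifi203, at -36 in Mndal, -40 in Ifi206, -58 in Ifi208, -73 in Ifi213 and -79 in Ifi214. No such match lay in the promoters of Ifi209 and Aim2. The STAT motif TTCNNNGAA, which reads the same on both strands and has the run GAA in common with the first, was in none of the 10 promoters and in 8.3% of all promoters. A match is a run of letters and not a measured binding site, and a window without one says nothing of the factor.

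Neighbouring p200 genes share sequence, and reads that fit more than 1 gene equally well cannot be given to any of them. In the last 500 bases of the reference transcripts, from which 3′ reads come, 58.6% of the 90-base words of Ifi209 also occurred in Ifi214, and the reverse. The figure was 3.65% for Ifi208 and Ifi213 with each other and 8.52% for Mndal, with Ifi205 and Ifi211. Ifi203, Ifi204, Ifi206 and Aim2 had no shared word there. Other annotated transcripts reached 25.3% for Ifi206 and 19.0% for Ifi213. Over the coding sequence, Ifi208 and Ifi213 were 96.9% identical along 1758 aligned bases, and Ifi209 and Ifi214 were 96.9% identical along 639. Across the 36 pairs of members the identity of the aligned stretch ran from 58.5% to 96.9%, with a median of 73.6%. The gene model of Mndal spans 93.4 kb and overlaps Ifi211 and Ifi203 on the same strand, and Aim2 overlaps Cadm3. Levels of Ifi209 and Ifi214 are therefore uncertain as a split between them, and their sum is given as well.

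The WT library held 84813609 UMIs in 12769 barcodes and the CKO library 76200586 in 13754, of which 11159 and 11803 cells were kept, and 56 barcodes occurred in both. Cells were gated on raw UMIs: T (at least 2 UMIs of Cd3d, Cd3e and Cd3g, no Cd79a), B (at least 2 of Cd79a, no Cd3e) and NK (at least 1 of Ncr1, no Cd3e). The gates held 7721 WT and 3529 CKO T cells, 2743 and 7336 B cells, and 80 and 237 NK cells. T cells were split by Cd4, Cd8b1, Foxp3 and Trdc into CD4 (2812 and 1346), CD8 (2781 and 459), Foxp3 (218 and 199) and Trdc (154 and 512) cells. Detection of the gating genes in the T, B and NK gates is fixed by these rules and is no check of the cells. All 11 T cell, 6 B cell and 8 NK cell markers looked at were detected in their own gate in both libraries. This does not measure the purity of a gate. Rpa1, the targeted gene, stood at 40.5 CPM (UMIs of the gene per 1000000 UMIs of the gate) in WT and 26.2 in CKO T-gated cells, a CKO over WT ratio of 0.648 (0.590 to 0.711), and at ratios of 0.872 in B-gated and 1.30 in NK-gated cells. These 3′ tags may lie outside the deleted part and so check neither the genotype nor the cells in which it was deleted.

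All members but Ifi204 had at least 633 UMIs each in T-gated and in B-gated cells of the WT library. In WT NK-gated cells the same genes rested on fewer, from 18 UMIs of Aim2 to 255 of Ifi203. Levels are CPM of UMIs summed over the cells of a gate. Each UMI stands for 1 transcript 3′ end, so the values are not divided by gene length. The summed level of the 9 genes was 2375 CPM in B-gated, 1992 in T-gated and 1650 in NK-gated WT cells. Ifi203 and Mndal had the highest levels in each of these 3 gates, with 29.1% and 21.1% of the p200 UMIs in T-gated and 30.0% and 26.9% in B-gated WT cells.

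Members differed in which WT lymphocytes held most of them. Ifi203 (712 CPM in B-gated, 579 in T-gated and 537 in NK-gated cells) and Mndal (639, 419 and 423) were highest in B-gated cells. Ifi209 was also highest there, at 465 CPM against 267 in T-gated and 290.5 in NK-gated cells. Aim2, the inflammasome sensor, was low throughout and stood at 49.1 CPM in B-gated, 37.9 in NK-gated and 17.7 in T-gated cells, a B over T ratio of 2.77 (2.5 to 3.07).

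Ifi206, Ifi208 and Ifi213 were lower in WT B-gated than in WT T-gated cells. Ifi206 stood at 146 CPM in B-gated, 228 in T-gated and 170.5 in NK-gated cells. Ifi213 stood at 160 CPM, 202 and 75.8, and Ifi208 at 57.8 CPM, 156 and 63.2 in the same order. Ifi208 thus had a B over T ratio of 0.369 (0.342 to 0.398) in WT. Ifi214 stood at 144 CPM in B-gated, 119 in T-gated and 44.2 in NK-gated cells. Ifi204 was close to absent, with 3.67 CPM in T-gated, 0.698 in B-gated and 8.42 in NK-gated cells.

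Among the T cell gates of the WT library the order of the levels differed between members. Ifi213 was highest in CD8 cells (225 CPM) and lowest in Foxp3 cells (131), with Trdc cells (186) and CD4 cells (185) within their counting intervals of each other. Ifi208 was at 171 CPM in CD8, 170 in Trdc and 150 in CD4 cells, neighbours in that order whose intervals overlapped, and at 91.7 CPM in Foxp3 cells. Aim2 ran the other way, with 37.7 CPM in Foxp3 cells against 14.8 in CD4 cells, a ratio of 2.55 (1.88 to 3.4). In the CKO library the Foxp3 over CD4 ratio of Aim2 was 1.38 (0.848 to 2.15), on 24 UMIs in Foxp3 cells. Ifi214 in CD8 cells was 1.49 times its CD4 level in WT (1.41 to 1.58) and 1.17 times in CKO (1.05 to 1.31).

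**Figure D1:**
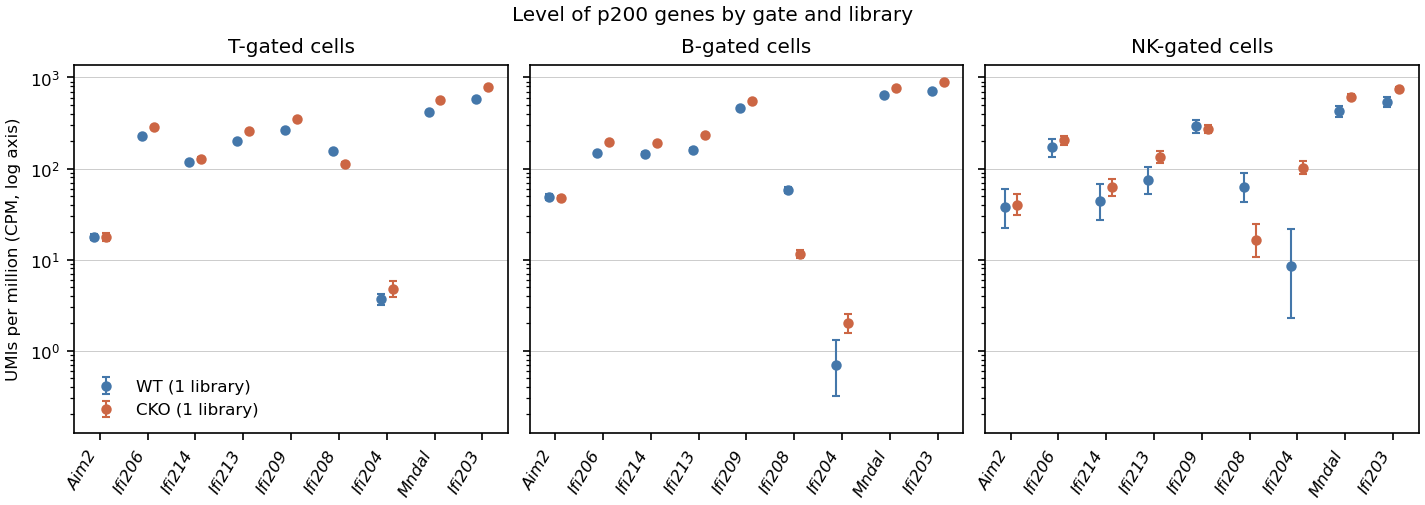
Level of each p200 gene in T-gated, B-gated and NK-gated cells (CPM of summed UMIs, log axis) in the WT and CKO libraries, 1 library each. Points are levels and bars exact Poisson 95% intervals (counting error only). Most genes lie slightly higher in CKO; Ifi208 lies lower in all 3 panels, and Ifi204 is under 10 CPM except in CKO NK-gated cells.

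In T-gated cells most p200 genes stood higher in the CKO than in the WT library, by up to 1.35-fold, while Ifi208 stood lower. Ifi203 went from 579 CPM in WT to 784 in CKO, a ratio of 1.35 (1.33 to 1.38), and Mndal from 419 to 567, a ratio of 1.35 (1.32 to 1.38). Ifi209 went from 267 to 351 CPM, a ratio of 1.32 (1.28 to 1.35). Ifi213 went from 202 to 256 CPM (1.27, 1.23 to 1.31) and Ifi206 from 228 to 287 CPM (1.26, 1.22 to 1.29). The intervals of the 2 libraries did not overlap for any of these 5 genes.

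Ifi214 and Aim2 differed little between the T-gated cells of both libraries. Ifi214 went from 119 CPM in WT to 128 in CKO (1.07, 1.03 to 1.12). The sum of Ifi209 and Ifi214, which share tail sequence, went from 386 to 479 CPM (1.24, 1.21 to 1.27). Aim2 stood at 17.7 CPM in both, a ratio of 0.999 (0.886 to 1.125). Ifi208 was at 156 CPM in WT and 112 in CKO, a ratio of 0.718 (0.687 to 0.751).

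In T-gated cells 8 members had a mean of both libraries of 5 CPM or more, and 5 of them were at least 25% higher in CKO, as were 8.27% of all 8703 genes at that level. Ifi208 alone was at least 20% lower, against 2.96% of all genes. None was past 1.5-fold in either direction (background 2.62% higher and 0.931% lower). Their median log2 ratio was 0.34, beside 0.08 over all genes. The rule that chose the members used this contrast, so nothing is read from these counts.

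In B-gated cells 6 of the 8 measured members stood higher in the CKO library, and Ifi208 stood much lower. Ifi213 had the highest ratio of the 8 measured members, from 160 CPM in WT to 235 in CKO (1.47, 1.40 to 1.54). Ifi206 went from 146 to 194 CPM (1.33, 1.26 to 1.40), Ifi214 from 144 to 189 CPM (1.31, 1.24 to 1.38) and Ifi203 from 712 to 892 CPM (1.252, 1.22 to 1.28). Mndal (639 and 773 CPM) and Ifi209 (465 and 557 CPM) had ratios of 1.21 (1.18 to 1.24) and 1.20 (1.16 to 1.23), with intervals of the levels apart.

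Aim2 stood at 49.1 CPM in WT and 47.2 in CKO B-gated cells, a ratio of 0.961 (0.875 to 1.055), with overlapping intervals. Ifi208 stood at 57.8 CPM in WT (53.7 to 62.1) and 11.7 in CKO (10.5 to 12.9), a ratio of 0.202 (0.178 to 0.229). In B-gated CKO cells 4 members were at least 25% higher (3.85% of all 8753 genes) and Ifi208 alone at least 20% lower (4.06%). At 1.5-fold the counts were 0 higher (0.788%) and 1 lower, again Ifi208 (1.49%). The median log2 ratio of the members was 0.30, beside 0.03 over all genes.

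NK-gated cells were few, with 475096 UMIs in WT and 1442762 in CKO, so their intervals are wide. Ifi203 stood at 537 CPM in WT and 747 in CKO (1.39, 1.21 to 1.60) and Mndal at 423 and 614 CPM (1.45, 1.24 to 1.70). Ifi213 went from 75.8 CPM in WT to 134.5 in CKO (1.77, 1.24 to 2.61). Ifi206 (1.20, 0.935 to 1.55), Ifi214 (1.41, 0.870 to 2.39), Ifi209 (0.945, 0.777 to 1.16) and Aim2 (1.06, 0.616 to 1.91) had ratios whose intervals held 1. Ifi208 stood at 63.2 CPM in WT (30 UMIs) and 16.6 in CKO (24 UMIs), a ratio of 0.263 (0.147 to 0.466).

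All 9 members were measured in NK-gated cells, and 5 were at least 25% higher in CKO, where 21.4% of all genes were. Ifi208 was the 1 member at least 20% lower (background 27.8%). At 1.5-fold, Ifi204 and Ifi213 were higher (11.6%) and Ifi208 lower (15.4%). Counts in this gate depend on the processing more than in the others, as given in the closing section.

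**Figure D2:**
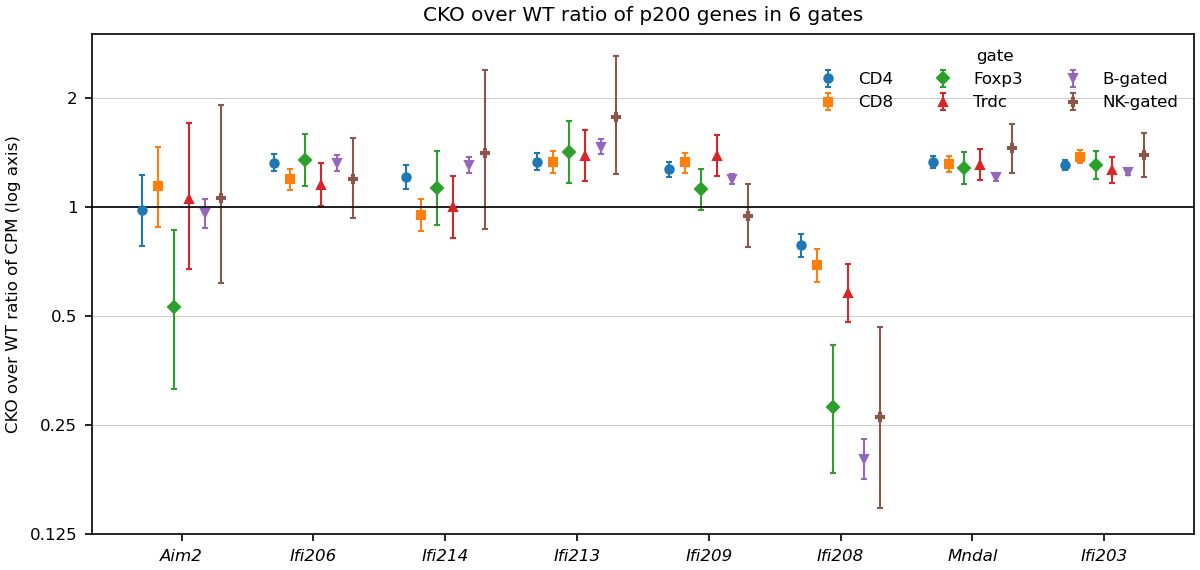
CKO over WT ratio of CPM (log axis) for 8 p200 genes in CD4, CD8, Foxp3, Trdc, B-gated and NK-gated cells, 1 library per genotype. Bars are exact conditional binomial 95% intervals (counting error only); Ifi208 is below 1 in all 6 gates and the other genes lie mostly between 1 and 1.5, with Aim2 in Foxp3 cells the lowest of them (0.529) and Ifi213 in NK-gated cells the highest (1.77). Ifi204 is left out for its low counts.

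The summed p200 ratio was 1.26 (1.238 to 1.283) in CD4, 1.24 (1.22 to 1.27) in CD8, 1.21 (1.15 to 1.28) in Foxp3 and 1.22 (1.16 to 1.28) in Trdc cells, with overlapping intervals. It was 1.31 (1.285 to 1.34) in the T-gated cells that could not be split, a counting interval just above that of CD4 cells. Such intervals leave out the spread between cells, so this gap is not read as a difference between gates. In Foxp3 cells the summed ratio turned to 0.859 when the interferon strata described further on were held at equal shares. Ifi203 had ratios from 1.27 in Trdc to 1.38 in CD8 cells, and Mndal from 1.28 in Foxp3 to 1.33 in CD4 cells. Rpa1 did not keep to 1 ratio across the same gates, with 0.505 in CD4, 0.783 in CD8, 0.728 in Foxp3 and 1.10 in Trdc cells. Ifi214 was higher in CKO CD4 cells (1.21, 1.12 to 1.31), with a ratio near 1 in CD8 (0.953, 0.861 to 1.05) and Trdc cells (0.998, 0.824 to 1.22).

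The same limits, 25% higher and 20% lower, were applied to the T cell gates. In CD4 cells 5 members were higher (background 7.21%) and 1 lower (6.0%), in CD8 cells 4 higher (18.0%) and 1 lower (6.08%), and in Trdc cells 5 higher (24.0%) and 1 lower (16.6%). The lower member was Ifi208 each time. In Foxp3 cells 4 were higher (21.4%) and 2 lower (22.8%), Ifi208 and Aim2. Aim2 there stood at 37.7 CPM in WT (58 UMIs) and 19.98 in CKO (24 UMIs), a ratio of 0.529 (0.315 to 0.866).

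Ifi208 was the exception among the 9 genes described. It was lower in the CKO library in every gate of lymphocytes, with ratios of 0.785 (0.728 to 0.845) in CD4, 0.690 (0.619 to 0.768) in CD8, 0.578 (0.481 to 0.698) in Trdc and 0.281 (0.184 to 0.417) in Foxp3 cells. The T-gated cells that could not be split stood at 147 and 128 CPM, for a ratio of 0.874 (0.80 to 0.953). Among genes of at least 20 CPM it had the 7th lowest ratio of 5467 in B-gated cells, where the 6 lower ones were 4 immunoglobulin constant genes, Slpi and Hist1h3c. It was 39th of 5323 in T-gated and 12th of 5896 in NK-gated cells, and among the T cell gates 118th of 5249 in CD4, 44th of 5233 in CD8, 20th of 5523 in Foxp3 and 60th of 5446 in Trdc cells. Eif2s3y, a gene of the Y chromosome, was lower still in T-gated and NK-gated cells and had ratios from 0.154 in NK-gated to 0.376 in Foxp3 cells. The Y-linked genes Ddx3y, Kdm5d and Uty, looked at once the data were seen, had ratios from 0.69 to 1.29 over the same 7 gates, and Xist had at most 5 UMIs in any gate of either library.

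Within each library Ifi208 was also unevenly spread over cell types. B-gated cells held 36.9% of the T-gated level in WT and 10.4% in CKO. Free RNA of T cells can be set beside this. Trac, Trbc2, Cd3d and Cd3g, which B cells lack, stood in B-gated cells at 1.13% to 1.42% of their T-gated level in WT and at 0.575% to 0.768% in CKO. Among B-gated cells without any UMI of Cd3d, Cd3g, Trac, Trbc1 and Trbc2, a subset taken once the data were seen, the Ifi208 ratio was 0.203. Plasma cell markers in B-gated cells moved with it (Jchain, Xbp1, Sdc1 and Prdm1 summed, all 4 detected in both libraries, 915 CPM in WT and 239 in CKO), and their part in the Ifi208 level was not tested.

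The share of cells with an Ifi208 UMI moved the same way when every cell was thinned to 2000 UMIs. Shallower cells were left out, so that 7685 WT and 3506 CKO T-gated and 2711 WT and 7211 CKO B-gated cells entered. Among T-gated cells the share was 25.4% (24.4 to 26.3%) in the WT library against 19.1% (17.8 to 20.5%) in the CKO library, and 52.9% against 40.4% before thinning. In B-gated cells it was 9.52% (8.44 to 10.7%) and 2.23% (1.90 to 2.60%), and 18.0% and 4.16% before thinning. Cst3-gated myeloid cells, which had 2 Ifi208 UMIs in each library, gave 1 of 57 thinned cells in WT (1.75%) and 0 of 82 in CKO, with an upper bound of 4.4%. That bound rests on few cells and sets no background for the CKO B-gated share. Median depths before thinning were 6303 and 5792 UMIs in T-gated, 4037 and 3872 in B-gated and 7748 and 7199 in Cst3-gated cells.

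Ifi213, whose promoter and coding sequence are the nearest to those of Ifi208, moved the other way in the same cells. The sum of Ifi208 and Ifi213 was 358 CPM in WT and 369 in CKO T-gated cells, a ratio of 1.03 (1.0 to 1.06). In B-gated cells the sum went from 218 CPM in WT to 247 in CKO (1.13, 1.09 to 1.18). In NK-gated cells it went from 139 to 151 CPM (1.09, 0.822 to 1.46). Ifi208 made up 7.85% of the p200 UMIs of T-gated cells in WT and 4.48% in CKO, and 2.43% and 0.402% in B-gated cells. Ifi213 kept nearly the same part in T-gated cells, 10.1% and 10.2%, and had 6.73% and 8.10% in B-gated cells. How reads of this near-identical pair were divided was not tested, beyond the 3.65% of shared words in the reference tails. The counts hold no bases, so sequence variants at the locus, or of Eif2s3y, were not analysed here.

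**Figure D3:**
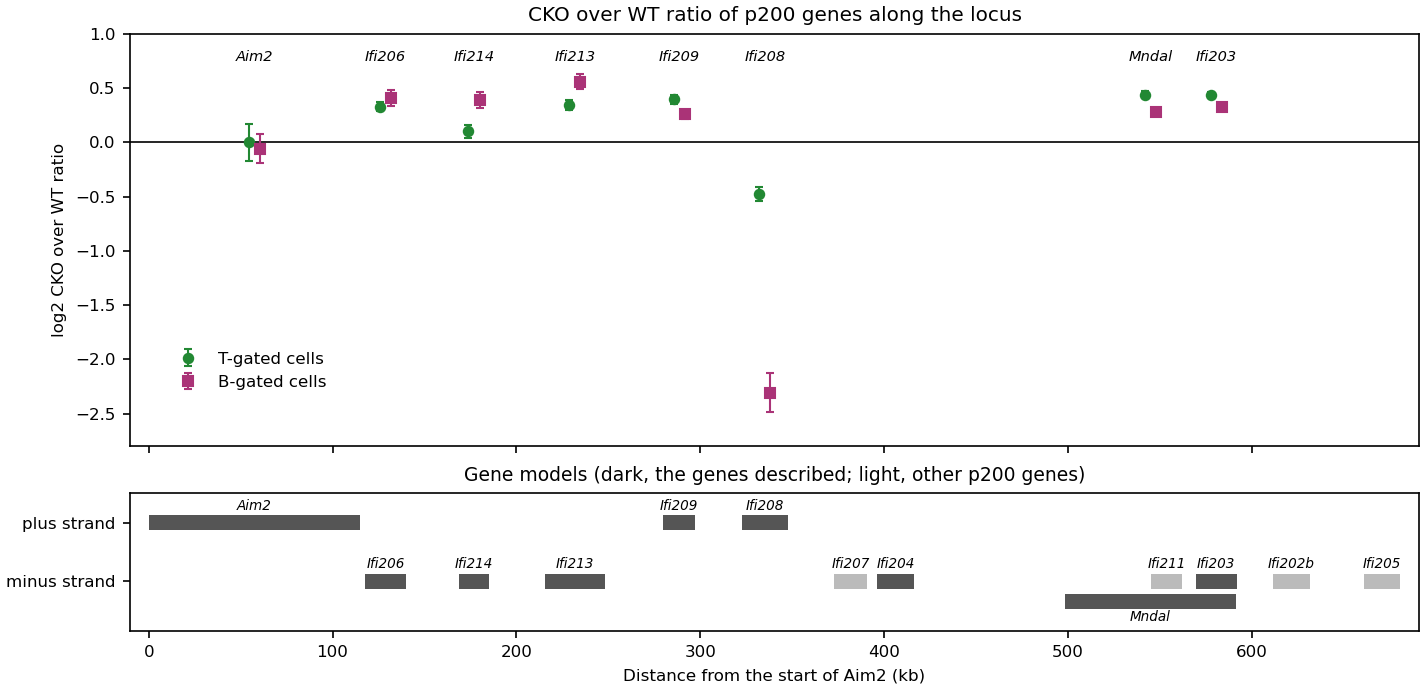
Log2 of the CKO over WT ratio of CPM in T-gated and B-gated cells for 8 p200 genes, plotted by distance from the start of Aim2 (kb), above the gene models by strand. Bars are exact conditional binomial 95% intervals (counting error only). Ifi208, at -0.48 in T-gated and -2.31 in B-gated cells, lies below 0 beside Ifi209 and Ifi213, which lie above.

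Position along the locus did not sort the ratios. Ifi209 and Ifi208 are neighbours on the plus strand and had log2 ratios of 0.40 and -0.48 in T-gated and 0.26 and -2.31 in B-gated cells. Ifi203 and Mndal, at the other end and with overlapping gene models, had 0.44 and 0.44 in T-gated and 0.32 and 0.28 in B-gated cells.

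Ifi204 was the rarest member in T and B cells and stood out in NK-gated cells of the CKO library. The WT NK-gated cells held 4 Ifi204 UMIs, 1 in each of 4 of 80 cells (8.42 CPM, 2.29 to 21.6), and the CKO NK-gated cells 147 UMIs in 45 of 237 cells (102 CPM, 86.1 to 120), with at most 12 in a cell. The ratio was 12.1 (4.63 to 45.0). Thinned to 2000 UMIs, 1 of 80 WT cells and 25 of 233 CKO cells (10.7%, 7.07 to 15.4%) held a UMI, beside 14.0% and 12.2% of Cst3-gated myeloid cells and 0.416% and 0.599% of T-gated cells.

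Myeloid markers were measured beside it, because Ifi204 is abundant in myeloid cells. In Cst3-gated cells it stood at 139 CPM in WT and 226 in CKO. The 10 myeloid markers summed to 2355 CPM in WT and 2257 in CKO NK-gated cells, with Lyz2, C1qb, S100a8 and S100a9 at 0 in WT and S100a8 and S100a9 at 0 in CKO. In CKO NK-gated cells the per-cell median of these markers was 2137 CPM with an Ifi204 UMI and 2168 without. In Cst3-gated CKO cells it was 22610 with and 3685 without. The sums were not split by marker, Fcer1g among them. The near-equal medians in NK-gated cells therefore do not tell whether the cells with Ifi204 were myeloid, which was not tested. Left without the cells that also met the T or B gate, the NK ratio was 11.1 (a subset taken once the data were seen).

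Elsewhere Ifi204 rested on few UMIs. It was at 3.67 and 4.81 CPM in T-gated cells (193 and 107 UMIs, ratio 1.31, 1.03 to 1.67), and 1 WT cell held 35 of those UMIs. In Trdc cells it was 5.07 CPM in WT (5 UMIs) and 13.9 in CKO (52 UMIs), with 20 of the CKO UMIs in 1 cell. In CD4 cells it was 3.27 and 1.48 CPM (59 and 12 UMIs, ratio 0.451, 0.221 to 0.849), with 19 of the WT UMIs in 1 cell. B-gated cells held 9 UMIs in WT and 66 in CKO, 11 of them in 1 cell, a ratio of 2.88 (1.43 to 6.57).

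The next comparison set the members against the interferon response of single cells within each library, which the choice of the genes did not use. Cells thinned to 2000 UMIs were put in 4 strata by their UMIs of 8 other interferon genes (Isg15, Ifit1, Ifit3, Usp18, Irf7, Rtp4, Rsad2 and Oasl2). The levels in a stratum use all UMIs of its cells. The summed p200 level was higher in each successive stratum, from 1152 CPM in WT T-gated cells with none of those UMIs to 1531, 2193 and 4300 CPM in cells with 1, 2 to 3, and 4 or more. The CKO T-gated cells gave 1127, 1573, 2104 and 4573 CPM. In B-gated cells the 4 levels were 1565, 2504, 3750 and 6498 CPM in WT and 1765, 2592, 3703 and 6495 in CKO. Strata are ranges of a score and not cell types, and 4.98% of WT and 6.27% of CKO T-gated cells lay just below the highest stratum, with 3 UMIs.

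Members differed in how steeply they climbed. From the lowest to the highest stratum of WT T-gated cells the level was 3.50 times as high for Ifi203, 2.94 for Mndal, 4.36 for Ifi209, 4.53 for Ifi206, 4.38 for Ifi213 and 4.80 for Ifi214. The CKO values were 3.90, 3.12, 4.53, 5.34, 5.91 and 6.84 in the same order. In B-gated cells these 6 genes ranged from 2.92 (Mndal) to 7.13 (Ifi214) in WT and from 2.68 (Mndal) to 5.87 (Ifi213) in CKO. Aim2 stood nearly level, at 1.27 in WT and 1.17 in CKO T-gated cells and at 0.998 and 0.993 in B-gated cells.

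Ifi208 climbed with the interferon genes in both libraries from a lower base in CKO. In T-gated cells it went from 91.5 to 352 CPM in WT (3.85 times) and from 68.3 to 195 CPM in CKO (2.85 times). In B-gated cells it went from 24.2 to 254 CPM in WT (10.5 times) and from 4.75 to 43.2 CPM in CKO (9.11 times). The CKO level stayed at about 70 CPM in T-gated cells with 0, 1 and 2 to 3 UMIs (68.3, 70.3 and 74.6 CPM), whereas the WT level stepped up at each stratum (91.5, 113 and 157 CPM).

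**Figure D4:**
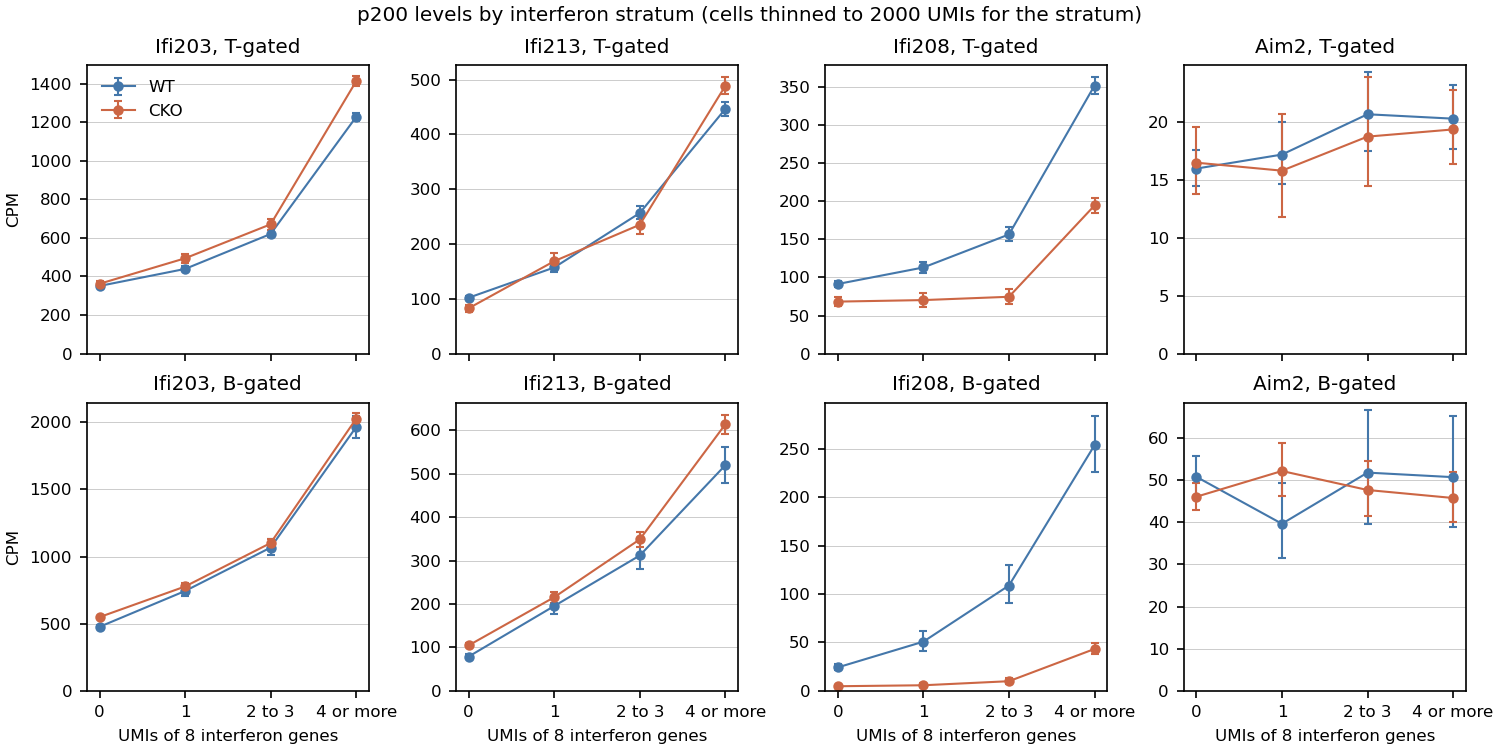
CPM of Ifi203, Ifi213, Ifi208 and Aim2 in T-gated (top) and B-gated cells (bottom) by the number of UMIs of 8 interferon genes per cell after thinning to 2000 UMIs, in the WT and CKO libraries (1 each). Points are levels and bars exact Poisson 95% intervals (counting error only). Ifi203 and Ifi213 climb in both libraries, with CKO above WT in the highest stratum, Ifi208 climbs with CKO below WT at every stratum, and Aim2 is nearly flat.

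Within strata of the same UMI range the libraries stood close in the summed p200 level and apart for Ifi208. The summed CKO over WT ratio in T-gated cells was 0.978, 1.03, 0.959 and 1.06 from the lowest to the highest stratum, against 1.26 over all T-gated cells. In B-gated cells it was 1.13, 1.04, 0.987 and 1.0, against 1.22. The share of T-gated cells in the highest stratum was 19.9% in WT and 34.3% in CKO, and that of B-gated cells 10.0% and 15.7%. The strata do not fully match the libraries, since the highest has no upper limit. Over all thinned T-gated cells the mean was 2.22 UMIs of the interferon genes in WT and 4.0 in CKO. Those genes themselves differed between the libraries, and their part in the p200 ratios was not tested.

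For Ifi208 the ratio within strata was 0.747, 0.621, 0.477 and 0.552 in T-gated cells, above the pooled 0.718 in the lowest stratum and below it in the other 3. In B-gated cells it was 0.196, 0.113, 0.0914 and 0.170, each below the pooled 0.202. Ifi214 was below 1 in all 4 strata of T-gated cells (0.653, 0.803, 0.686 and 0.931), although it was 1.07 over all T-gated cells. Mndal stayed above 1 in all 4 strata of T-gated cells, from 1.10 to 1.18. Ifi203 did as well, from 1.03 to 1.15, with an interval that held 1 in the lowest stratum (0.989 to 1.08).

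NK-gated cells had 5 WT and 36 CKO cells in the highest stratum, so their strata are given for Ifi204 only. Its CKO level was 7.59 CPM with none of the 8 genes' UMIs, 25.01 with 1, 180.5 with 2 to 3 and 530 with 4 or more (103 UMIs). The 4 WT UMIs fell as 2, 0, 1 and 1 over the same strata.

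Per cell, the 9 genes together gave a mean of 4.04 UMIs in WT and 5.21 in CKO T-gated cells thinned to 2000 UMIs, with medians of 3 and 4. At least 10 p200 UMIs were found in 8.45% of WT and 16.0% of CKO T-gated cells, and none in 8.65% and 7.22%. In B-gated cells the means were 5.12 and 6.01, with 10 or more UMIs in 14.3% and 19.3%. The difference in T-gated cells thus lay more in the upper end of the distribution than in the share of cells with none. The variance over cells was 3.62 times the mean in WT and 4.70 times in CKO T-gated cells, where counting error alone would give 1.

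Other interferon-stimulated genes showed larger differences than the p200 members. Of 45 measured genes of a list of such genes, 39 were at least 25% higher in CKO T-gated cells (8.27% of all genes) and none was 20% lower (2.96%), with a median log2 ratio of 0.58. In B-gated cells 33 of 43 were higher (3.85%) and none lower (4.06%), with a median of 0.53. In NK-gated cells 31 of 44 were higher (21.4%) and 2 lower (27.8%), with a median of 0.62. Ifitm3, an antiviral membrane protein, had the highest ratio in T-gated (26.4 and 106 CPM, 4.00) and in B-gated cells (61.7 and 126 CPM, 2.04) among those of at least 20 CPM. No listed interferon gene in T-gated or B-gated cells was lower to the degree of Ifi208. In NK-gated cells the listed gene Ly6a was nearly as low. It stood at 183 CPM in WT and 52.7 in CKO, a ratio of 0.288 (0.209 to 0.396), beside 0.263 for Ifi208.

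Genes of the inflammasome and of cytosolic DNA sensing had lower median log2 ratios than the p200 members in T-gated (0.17) and B-gated cells (0.10), and a higher one in Trdc cells (0.40 against 0.34). Of the 8 measured in T-gated cells, 2 were at least 25% higher (8.27% of all genes), the apoptosis and inflammasome protease Casp8 (119 and 156 CPM, 1.31) and the nucleotide hydrolase Samhd1 (294 and 399 CPM, 1.36). None of 8 was past these limits in B-gated cells (3.85% and 4.06%). In Trdc cells 5 of 9 were higher (Casp1, Casp8, Cgas, Tbk1 and Samhd1; 24.0%) and Irf3 lower (16.6%). In NK-gated cells 3 of 9 were higher (Casp1, Casp8 and Gsdmd; 21.4%) and Irf3 lower (27.8%). Pycard, the adaptor of Aim2, stood at 235 and 230.3 CPM in T-gated (0.982) and at 115 and 94.5 CPM in B-gated cells (0.824, 0.774 to 0.878). Casp1, the protease of that inflammasome, stood at 2.17 and 5.44 CPM in T-gated and 29.6 and 32.0 in B-gated cells.

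The count tables held 4 further p200 genes. Ifi205, Ifi207 and Ifi211 were each under 2.4 CPM in T-gated and B-gated cells of both libraries and between 135 and 284 CPM in Cst3-gated myeloid cells. Like Ifi208, Ifi205 was lower in CKO T-gated cells (62 and 11 UMIs, ratio 0.420, 0.199 to 0.804). It was also lower in CKO Cst3-gated cells (284 and 171.5 CPM, 0.604, 0.472 to 0.770). In B-gated cells its ratio was 2.26 (0.771 to 8.98), on 4 and 23 UMIs. Ifi211 stood at 8.42 CPM in WT NK-gated cells (4 UMIs) and 32.6 in CKO (47 UMIs), and 59.4% of its tail words are shared with other p200 genes. Ifi207 lay the other way there, at 14.7 CPM in WT (7 UMIs) and 1.39 in CKO (2 UMIs), a ratio of 0.0941 (0.00954 to 0.494). Ifi202b had no UMI in any gate of either library, which in T-gated cells allows up to 0.0570 CPM in WT and 0.135 in CKO at 3 counts.

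Cst3-gated myeloid cells, 66 in WT and 90 in CKO, gave the members another profile. Ifi208 and Ifi214 were at 3.42 and 8.56 CPM in WT, while Ifi203 (385 CPM), Mndal (332 CPM) and Aim2 (59.9 CPM) were well detected. The summed ratio was 1.52 (1.38 to 1.68), with Ifi213 from 37.6 to 126 CPM (3.34, 2.07 to 5.61). The make-up of this gate differed between the libraries, with the 10 myeloid markers at 19120 CPM in WT and 9382 in CKO, and its part in these ratios was not tested.

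Markers of other lineages inside the lymphocyte gates also differed. In T-gated cells the 8 NK markers summed to 100.3 CPM in WT and 261 in CKO, with all 8 detected in both, and the 6 B cell markers to 93.9 and 149 CPM, with Cd79a at 0 by the gate. The 4 plasmacytoid dendritic cell markers, of which Bst2 is also on the list of interferon-stimulated genes, summed to 421.5 and 663 CPM, with all 4 detected. Bst2 alone held 329 and 555 CPM of these sums, so they mostly follow that interferon-stimulated gene. In CD4 cells NK markers summed to 30.2 and 41.5 CPM (Klrb1c and Tbx21 at 0 in CKO) and B cell markers to 86.8 and 138 CPM. Plasmacytoid markers, Bst2 included, summed there to 283 and 546 CPM. In NK-gated cells the 6 B cell markers summed to 1448 and 933 CPM, with all 6 detected. The plasmacytoid markers summed there to 530 and 420.0 CPM, with Siglech at 0 in CKO, and Bst2 alone held 320 and 340 CPM. Their part in the p200 ratios was not tested.

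Across the 7 gates of lymphocytes in 2 libraries, 14 points that share 2 libraries and their depths, the genes whose log2 level followed the summed p200 level most closely were mt-Nd4l (Pearson r 0.927), Nsun6 (0.891), Trim30a (0.881), Phf11b (0.880) and Trim25 (0.877), out of 5640 genes. Trim30a and Phf11b are on the list of interferon-stimulated genes. Among the members, Ifi203 and Mndal were the most alike pair over the same points (r 0.927) and Ifi208 and Mndal the least (-0.69).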

How the data were processed

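The authors deposited whole-number UMI counts for each gene and barcode, not normalized, and made them with Cell Ranger, version 6.0.2 per the file headers and 5.0.0 per the submitters' processing notes, which also list Seurat 4.0.3 and the build mm10, so the version is uncertain. Per the labels, the kit was 10x 3′ v3.1. A cell was kept from 500 UMIs and 200 genes on if no more than 10% of its UMIs were mitochondrial (306 WT and 437 CKO barcodes were over this limit). Doublets were scored with Scrublet in Scanpy 1.11.5, and the highest scores were left out at 0.8% per 1000 barcodes (1304 WT and 1513 CKO). Cells meeting no T, B or NK gate were 626 in WT and 728 in CKO, and 8 WT and 17 CKO NK-gated cells also met the T gate. Foxp3 cells had no Trdc or Cd8b1, Trdc cells no Foxp3 or Cd4, and CD4 and CD8 cells not the other's gene; the remaining T-gated cells were not split. The myeloid gate took at least 3 Cst3 UMIs and no Cd3e, Cd79a or Ncr1.

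Counts were summed per gate and library and divided by the gate's total (CPM), with exact Poisson intervals for levels, exact conditional binomial intervals for CKO over WT ratios and exact binomial intervals for shares (scipy 1.17.1). With 1 library per genotype no test was made. Counts of genes past a fold (1.5, or 25% higher and 20% lower) cover genes averaging 5 CPM or more. Word sharing used every 90-base word of GENCODE M21 transcripts, and coding sequences were aligned locally. All 9 genes are named in every gate. From the other lists the 2 highest and 2 lowest ratios of at least 20 CPM could be named. Further genes were named after their values were seen. They are Casp1, Pycard and others of the inflammasome list, Ly6a, the sex-linked genes and those ranked beside Ifi208. The genes and lists were chosen with earlier results of these data known. The ratios and their intervals were checked on simulated counts that held counting error alone. That check says nothing of how the intervals fare with spread between cells.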

Additional observations from a re-analysis of the deposited data

Results flagged for a closer look

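Ifi204 lay on opposite sides of 1 in CD4 cells and in other gates. Its CKO over WT ratio was 0.451 in CD4 cells (59 and 12 UMIs), 2.74 in Trdc cells (5 and 52 UMIs), 2.88 in B-gated cells (9 and 66 UMIs) and 12.1 in NK-gated cells (4 and 147 UMIs), with counting intervals that excluded 1 in each. With 1 library per genotype the differences between gates were not tested. Single cells held 19 of the 59 WT UMIs of CD4 cells, 20 of the 52 CKO UMIs of Trdc cells and 11 of the 66 CKO UMIs of B-gated cells. Counting intervals do not allow for such clustering in 1 cell.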

How the results depend on the processing

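No paired analysis was possible because each genotype had 1 library, and for the same reason no replicate could be left out. The summed p200 ratio stayed above 1 in every gate under every alternative, except in Foxp3 cells with equal strata. With interferon strata held at equal shares in both libraries it was 1.026 in T-gated, 1.021 in CD4, 1.041 in CD8, 0.859 in Foxp3, 1.007 in Trdc, 1.050 in B-gated and 1.160 in NK-gated cells. Scaled to totals that left out ribosomal protein and mitochondrial genes, it was 1.194 in T-gated, 1.225 in CD4, 1.164 in CD8 and 1.162 in Trdc cells. As a mean of per-cell CPM it was 1.290 in T-gated, 1.283 in CD8, 1.286 in Foxp3, 1.298 in Trdc and 1.183 in B-gated cells. With cells thinned to 2000 UMIs it was 1.287 in T-gated, 1.305 in CD8 and 1.175 in B-gated cells, and with stricter gates 1.319 in Foxp3 cells. The cause of these shifts was not tested.

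The number of members past 1.5-fold in either direction was 0 in T-gated cells (1 with equal strata), 1 in B-gated cells (2 with at least 1 UMI in each library as the only minimum) and 3 in NK-gated cells (5 as a mean of per-cell CPM, 5 with stricter gates, 7 when thinned, and 5 without cells also in the T or B gate, the last chosen after seeing the data). Counted from 25% higher or 20% lower it was 6, 5 and 6. In the main setting 2.62% of all genes were past 1.5-fold higher and 0.931% lower in T-gated cells. These shares were 0.788% and 1.49% in B-gated and 11.6% and 15.4% in NK-gated cells. At the looser limits they were 8.27% and 2.96%, 3.85% and 4.06%, and 21.4% and 27.8% in the same order. Shares of all genes are not given for the alternatives, so nothing is read from how these counts shifted. Of 207 values of single members under the alternatives, 177 moved by less than their counting interval and 9 lay on the other side of 1: Aim2 in T-gated cells (up to 1.01), Ifi209 in NK-gated cells (up to 1.09) and, with equal strata in T-gated cells, Ifi204 (0.853), Ifi206 (0.999) and Ifi214 (0.832). Ifi208 stayed below 1 under every alternative, from 0.593 to 0.738 in T-gated, 0.155 to 0.211 in B-gated and 0.213 to 0.343 in NK-gated cells. Of the lymphocyte gates, WT NK-gated (475096 UMIs) and WT Trdc cells (985846 UMIs) were the shallowest.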
